A study of Mus musculus with 2 samples.

Results

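The Krüppel-like factors (KLFs) described here are 10 genes, Klf2, Klf3, Klf4, Klf5, Klf6, Klf9, Klf10, Klf11, Klf13 and Klf15, taken by name from the 23284 genes of the count files. Messenger RNA was sequenced from cultured primary mouse hepatocytes, liver cells taken from the animal and grown in a dish. One group was infected with lentivirus expressing an shRNA against JMJD3, the histone H3 lysine 27 demethylase encoded by Kdm6b, and the other with control lentivirus. Both groups were C57BL/6 cells pooled from 5 mice, plated for 24 h and then exposed to the virus for 48 h. After the infection both were kept for 6 h in 5 mM glucose with 10 µM forskolin, which raises cyclic AMP by switching on adenylyl cyclase, as a model of fasting. The labels give neither the age nor the sex of the mice, and no uninfected or forskolin-free library was analysed here. Each group is 1 library, so no difference below has a replicate check, and every interval covers counting error only.

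KLFs are transcription factors that bind GC-rich and CACCC sequences through zinc fingers at their C-terminal end, and relatives with the same fingers can compete for a site. They differ in their N-terminal parts. Klf2, Klf4, Klf5 and Klf6 belong to a subgroup with activation domains, Klf3 recruits the corepressor CtBP, and Klf9, Klf10, Klf11 and Klf13 recruit the corepressor Sin3a. In liver, Klf15 is known for raising amino acid breakdown and gluconeogenesis in fasting, and Klf6 for its early induction after injury.

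The JMJD3 shRNA library held 18334366 counts and the control library 11099562, a 1.65-fold difference in depth. Levels are CPM, counts scaled to library size, after TMM scaling, and a gene was measured when its mean CPM over both libraries was at least 1. Kdm6b, the targeted gene, had 598 counts (33.0 CPM) in the JMJD3 shRNA library, against 1019 counts (90.7 CPM) in control. Hepatocyte markers were present, led by Trf at 4254 CPM with JMJD3 shRNA and 4282 CPM in control. Of the 10, 7 passed the size rule defined below as lower and 0 as higher, and their summed level was 6358 CPM against 12132 CPM. Without Trf, the other 9 summed to 2103 CPM with JMJD3 shRNA and 7851 CPM in control. The summed level of 10 macrophage markers was 132 CPM against 156 CPM, with 0 of 7 measured past the rule, and Cd14 alone made up 103 CPM against 128 CPM of it. That of 10 stellate cell and fibroblast markers was 234 CPM against 251 CPM, with 3 of 9 measured lower, and that of 8 cholangiocyte markers 8433 CPM against 8099 CPM, with 3 of 6 measured higher. Spp1 alone made up 8011 CPM against 7795 CPM of the cholangiocyte sum, and the others summed to 422 CPM against 304 CPM. Among macrophage markers Clec4f was at 0 counts in both libraries, and among lymphoid and blood markers Cd3e, Nkg7 and Hbb-b1 were. In bulk RNA, fewer cells of a type and less RNA per cell cannot be told apart.

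Most KLF transcripts were more abundant in the JMJD3 shRNA library, and Klf15 was less abundant. All 10 members were measured. A gene passed the size rule when its ratio of JMJD3 shRNA over control was at least 1.5-fold from 1 and the exact binomial 95% interval of that ratio excluded 1. Of the 10 members, 6 passed as higher (Klf3, Klf5, Klf6, Klf9, Klf10 and Klf13), against a background of 15.3% of the 12607 measured genes. Only Klf15 passed as lower, against a background of 12.8%. Klf2, Klf4 and Klf11 did not pass. The median log2 ratio of the 10 members was 0.85, beside -0.00388 over all measured genes, and 7 of the 10 ratios were above 1, against 49.7% of measured genes. The members were chosen with earlier results of these data known, so the background shares give scale and are not a test.

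**Figure D1:**
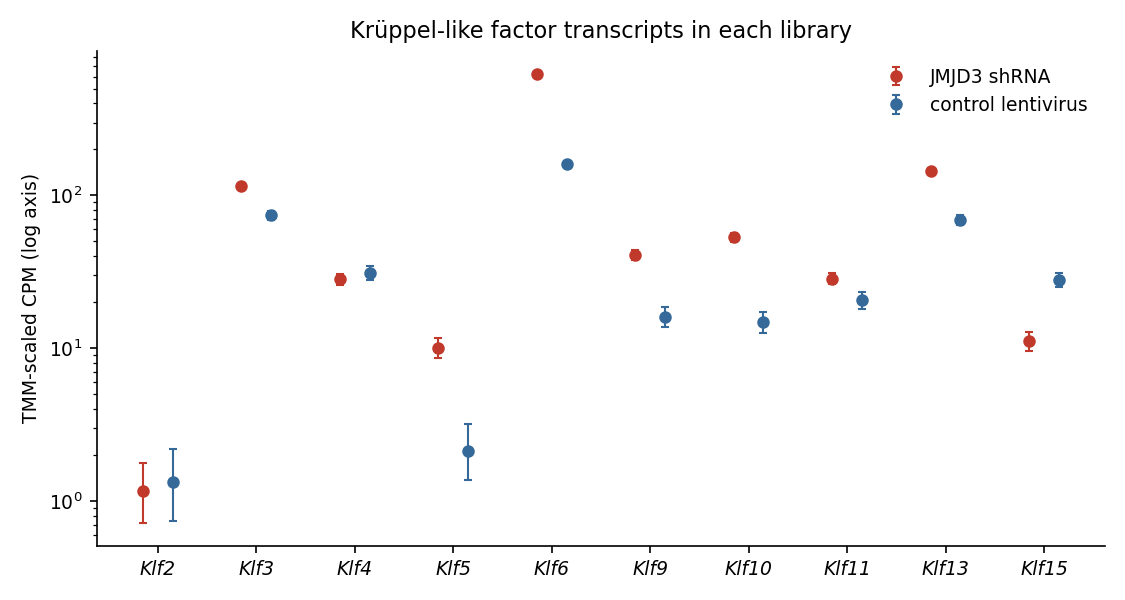
TMM-scaled CPM (log axis) of each member in the JMJD3 shRNA library (red) and in the control library (blue), with exact Poisson 95% intervals of the counts as bars. Klf6 had the highest CPM in both libraries, at 619 CPM against 161 CPM, and Klf15 was the reverse of the higher members, at 11.1 CPM against 28.0 CPM.

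Klf6, an activator induced early in injured liver and in activated stellate cells, had the most reads of the family. It held 11206 counts (619 CPM) in the JMJD3 shRNA library and 1811 counts (161 CPM) in control. The ratio was 3.84, a log2 ratio of 1.94 with an interval of 1.87 to 2.01. In mm9 the gene lies on the plus strand of chromosome 13 from 5860735 to 5869639, with 4 exons. Its mean CPM was above that of 97.5% of measured genes and its ratio above that of 98.5%.

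Klf5, a factor of proliferating epithelial cells, had the highest ratio of the 10, from far fewer reads. It had 183 counts (10.1 CPM) with JMJD3 shRNA and 24 counts (2.14 CPM) in control. The ratio was 4.73 (log2 2.24, interval 1.62 to 2.92). It lies on the plus strand of chromosome 14 from 99697910 to 99712628, with 4 exons. With so few control reads its interval overlapped those of Klf6 and Klf10, so the order of these 3 ratios was not resolved by the counts.

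Klf2 and Klf4, which keep endothelium quiescent and are induced there by flow through ERK5 and MEF2 factors, did not pass. Klf4, also a pluripotency and epithelial barrier factor, had 512 counts (28.3 CPM) in the JMJD3 shRNA library and 348 counts (31.0 CPM) in control, a log2 ratio of -0.13 with an interval of -0.33 to 0.07. Klf2 had only 21 counts (1.16 CPM) with JMJD3 shRNA and 15 counts (1.33 CPM) in control. Its log2 ratio of -0.20 had an interval of -1.23 to 0.86, too wide at this depth to show a difference of 1.5-fold either way. Beside these values, 12 endothelial markers had a summed level of 64.5 CPM with JMJD3 shRNA and 72.9 CPM in control, with 3 of 10 measured lower and 0 higher, and their part in the values of Klf2 and Klf4 was not tested. Klf4 spans chromosome 4 from 55540009 to 55545347 on the minus strand, with 5 exons, and Klf2 chromosome 8 from 74842961 to 74845553 on the plus strand, with 3.

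Klf3, a repressor that works through CtBP in blood and fat cells, passed narrowly. It had 2078 counts (115 CPM) in the JMJD3 shRNA library and 832 counts (74.0 CPM) in control. Its ratio of 1.55 (log2 0.63, interval 0.52 to 0.75) was the member value nearest above the threshold, and the interval reached below it. Klf11 was nearest on the other side, at 1.39. Klf3 lies on the plus strand of chromosome 5 from 65194762 to 65221368, with 6 exons.

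All 4 members of the Sin3a-binding subgroup had ratios above 1, and 3 of them passed. Klf10, named for its early induction by TGF-beta and also a clock output in liver, had 963 counts (53.2 CPM) with JMJD3 shRNA and 166 counts (14.8 CPM) in control, a ratio of 3.60 (log2 1.85, interval 1.61 to 2.09). Klf9, a factor induced by glucocorticoid and thyroid hormone, had 737 counts (40.7 CPM) against 181 counts (16.1 CPM) in control, a ratio of 2.53 (log2 1.34, interval 1.10 to 1.58). Klf13, known from late chemokine expression in T cells, had 2628 counts (145 CPM) against 778 counts (69.2 CPM) in control, a ratio of 2.10 (log2 1.07, interval 0.95 to 1.19). Klf11, the closest relative of Klf10, had 518 counts (28.6 CPM) against 232 counts (20.6 CPM) in control. Its log2 ratio of 0.47 had an interval of 0.24 to 0.70, above 0 but short of the 1.5-fold threshold. The intervals of Klf10 and Klf11 did not overlap.

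These 4 genes lie on different chromosomes. In mm9, Klf10 covers chromosome 15 from 38224168 to 38230462 on the minus strand and Klf9 on the plus strand of chromosome 19 from 23215716 to 23241401. Klf13 covers chromosome 7 from 71031237 to 71083801 on the minus strand and Klf11 on the plus strand of chromosome 12 from 25336236 to 25347647. The exons of the 10 members overlap no exon of another gene in the files. A microRNA gene, Mir1192, lies inside the span of Klf9, and E030018B13Rik inside that of Klf13, both off the exons that were counted.

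Klf15, the fasting and glucocorticoid-induced factor of hepatic amino acid breakdown, was the only member that passed as lower. It had 201 counts (11.1 CPM) in the JMJD3 shRNA library, against 315 counts (28.0 CPM) in the shallower control library. The ratio was 0.396, a log2 ratio of -1.34 with an interval of -1.60 to -1.08, and only 3.86% of measured genes had a lower ratio. The log2 ratio of Klf9, the other member known as a glucocorticoid target, was about as far from 0 in the opposite direction, at 1.34. Klf15 lies on the plus strand of chromosome 6 from 90412620 to 90425203, with 3 exons.

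**Figure D2:**
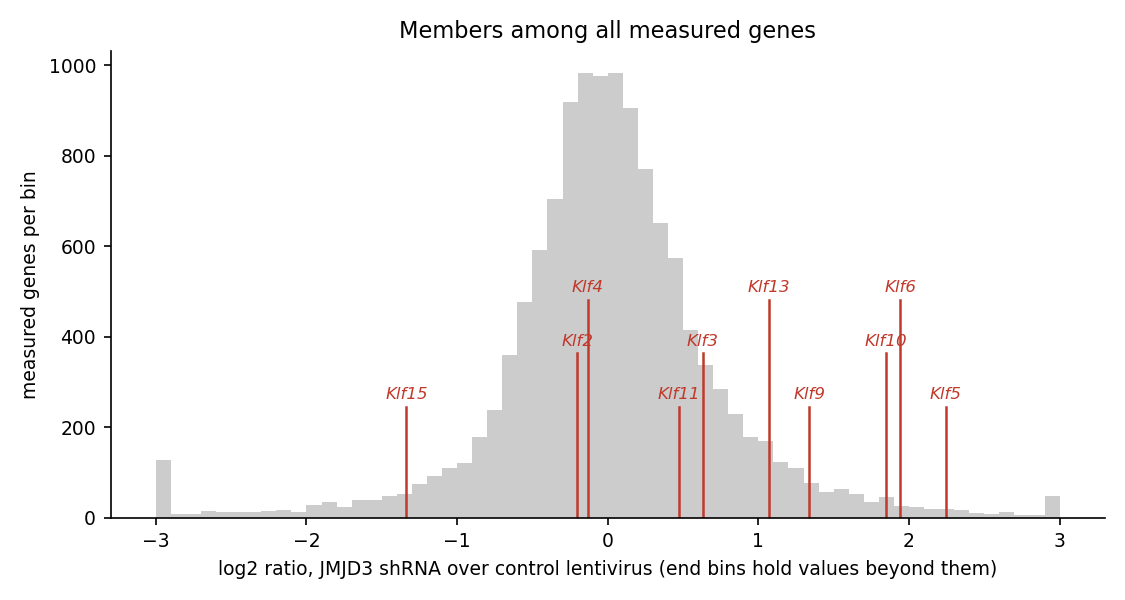
Number of measured genes per bin of the log2 ratio of JMJD3 shRNA over control (grey), with the ratio of each member as a labelled red line. The end bins also hold the 118 genes below -3 and the 45 above 3; Klf5, Klf6 and Klf10 lie in the right tail and Klf15 in the left.

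Divided by exon length in kb from the mm9 gene models (RPKM), the levels of the 10 transcripts summed to 277 RPKM in the JMJD3 shRNA library and 120 RPKM in control. Klf6 made up 53.0% of this sum with JMJD3 shRNA and 31.7% in control. Of the members' reads themselves, Klf6 took 58.8% (exact binomial interval 58.1% to 59.5%) against 38.5% (37.1% to 39.9%) in control. Without Klf6 the per-length sums were 130 and 82.1 RPKM in JMJD3 shRNA and control. Klf15 contributed 1.75% of the per-length sum with JMJD3 shRNA and 10.2% in control.

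The order of the per-length levels differed between the libraries. In the JMJD3 shRNA library it ran Klf6, Klf3, Klf13, Klf10, Klf9, Klf4, Klf11, Klf5, Klf15 and Klf2. Klf11 at 7.18 and Klf5 at 5.86 RPKM had overlapping Poisson intervals there, as did Klf5 and Klf15 at 4.84. In control the order was Klf6, Klf3, Klf15, Klf13, Klf4, Klf11, Klf9, Klf10, Klf5 and Klf2. Klf15, Klf13 and Klf4, at 12.2, 10.8 and 10.2 RPKM, each overlapped the next there, as did Klf11, Klf9 and Klf10 at 5.18, 4.94 and 4.85, and Klf5 and Klf2 at 1.24 and 0.735. Klf15 thus ranked 9 of 10 with JMJD3 shRNA and 3 of 10 in control.

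**Figure D3:**
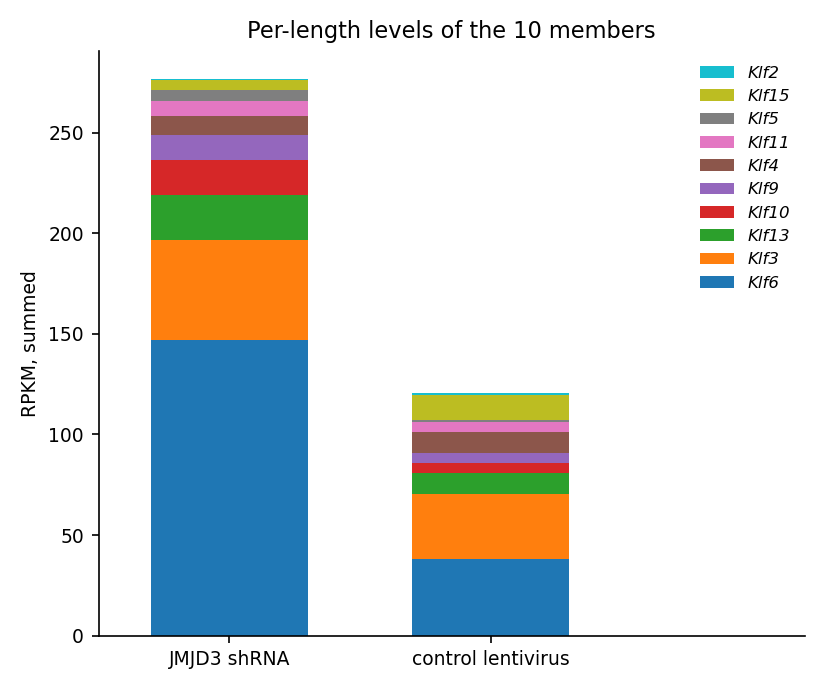
RPKM (TMM-scaled CPM divided by exon length in kb) of each member, stacked to the sum of the 10, in the JMJD3 shRNA library (left bar, 277) and the control library (right bar, 120). The Klf6 block is 147 against 38.2, and the Klf15 block 4.84 against 12.2.

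The authors' deposited table of the comparison lists all 10 members, with log2 fold changes within 0.00454 of the log2 ratios above. Its adjusted p-values come from 1 library per group, and neither their test nor the spread behind them is stated in a label or header. At an adjusted p-value threshold of 0.05, 6 members were positive in the authors' deposited table, against 14.6% of its 12838 genes, and 1 was negative, against 11.8%. They are the same 7 genes that passed the size rule. In the authors' deposited table the adjusted p-value was 7.26e-18 for Klf6, 0.0152 for Klf3 and 8.01e-07 for Klf15. The authors' deposited table gives 0.130 for Klf11, 0.743 for Klf4 and 0.871 for Klf2.

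The rest of the KLF and Sp families, which share the zinc finger type, was sought by name as well. Of 7 other KLF genes 4 were measured, with 2 higher and 0 lower. Klf7, an activator related to Klf6, had 219 counts (12.1 CPM) with JMJD3 shRNA and 31 counts (2.76 CPM) in control (log2 2.13, interval 1.59 to 2.72). Klf16, of the Sin3a-binding subgroup, had 445 counts (24.6 CPM) against 98 counts (8.72 CPM) in control (log2 1.49, interval 1.18 to 1.83). Klf12, a CtBP-binding repressor like Klf3, had a log2 ratio of -0.55 (-0.75 to -0.34) and did not pass. Klf1, the erythroid founder of the family, had 24 counts against 17 in control (log2 -0.19, interval -1.15 to 0.80). Klf8 had 5 counts against 2, Klf14 had 0 against 1, and Klf17 had 0 in both, where a count of 0 allows a level of up to 0.166 CPM with JMJD3 shRNA and 0.267 CPM in control.

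Of 9 Sp genes 6 were measured, with 2 higher (Sp1 and Sp9) and 0 lower. Sp3 and Sp1, with the most reads, had 187 and 172 CPM with JMJD3 shRNA and 132 and 103 CPM in control, log2 ratios of 0.50 (0.41 to 0.59) and 0.75 (0.65 to 0.85). Sp1 no longer passed at a fold of 2 or with the trend of the ratio with exon length removed. Part of the Sp3 exons overlaps another gene, so its count is uncertain. Sp9, at 1.39, rests on 38 counts against 9 in control and no longer passed with counts halved as if each pair were 2 reads. Sp6 at 0.94 and Sp4 at -0.13 had intervals that included 0. Of the Sp genes not measured, Sp5 had 22 counts with JMJD3 shRNA and 1 in control, Sp8 had 3 against 1, and Sp7 had 0 in both. With no filter on low counts, 3 Sp genes were higher. Across all 17 KLF genes sought, 14 were measured, 8 higher and 1 lower, with a median log2 ratio of 0.85.

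**Figure D4:**
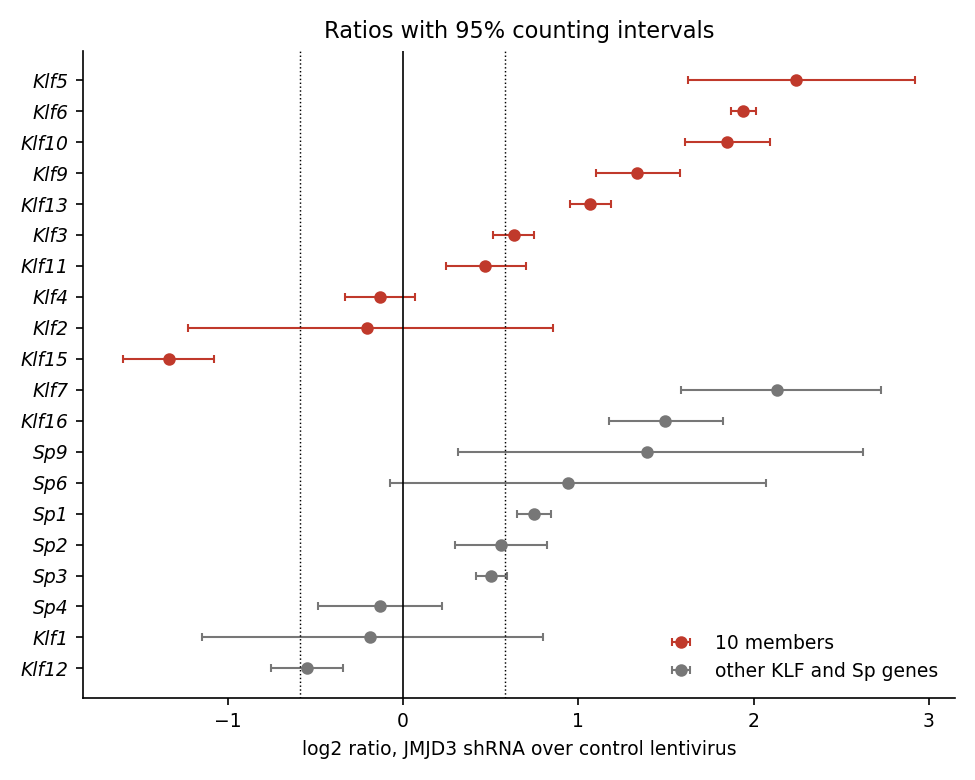
Log2 ratio of JMJD3 shRNA over control for the 10 members (red) and the other measured KLF and Sp genes (grey), with exact binomial 95% intervals as bars and the 1.5-fold thresholds as dotted lines. Klf5, Klf6, Klf10, Klf9 and Klf13 lie right of the upper threshold with their whole intervals, and Klf15 left of the lower one.

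The upstream sequences of the members are shown because forskolin acts through cyclic AMP, whose response element holds the core TGACG, and because several members are clock outputs, for which the E-box CACGTG is the known element. The 250 bases before the annotated start were available for 8 members from RefSeq in GRCm38.p6, a later build than the mm9 of the counts, and not for Klf5 and Klf10. Of the 4 shown, Klf6, Klf9 and Klf13 were higher and Klf15 lower with JMJD3 shRNA. Capitals mark matches to TGACG, on either strand, and to the E-box.
Klf6, chr13:5861239-5861488, plus strand: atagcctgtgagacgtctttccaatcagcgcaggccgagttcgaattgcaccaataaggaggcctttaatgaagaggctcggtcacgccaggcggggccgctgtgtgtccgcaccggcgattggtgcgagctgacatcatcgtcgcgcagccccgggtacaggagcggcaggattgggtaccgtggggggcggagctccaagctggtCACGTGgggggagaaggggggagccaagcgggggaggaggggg
Klf9, chr19:23140976-23141225, plus strand: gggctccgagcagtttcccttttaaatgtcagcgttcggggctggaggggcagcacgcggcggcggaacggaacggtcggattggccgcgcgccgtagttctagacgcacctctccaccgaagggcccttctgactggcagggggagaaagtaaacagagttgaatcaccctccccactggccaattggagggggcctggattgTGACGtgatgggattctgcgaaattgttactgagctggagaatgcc
Klf13, chr7:63938916-63939165, minus strand: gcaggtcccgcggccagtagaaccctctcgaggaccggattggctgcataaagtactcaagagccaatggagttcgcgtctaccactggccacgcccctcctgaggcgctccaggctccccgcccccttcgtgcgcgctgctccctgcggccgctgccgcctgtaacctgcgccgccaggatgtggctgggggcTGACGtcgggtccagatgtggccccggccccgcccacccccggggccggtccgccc
Klf15, chr6:90462326-90462575, plus strand: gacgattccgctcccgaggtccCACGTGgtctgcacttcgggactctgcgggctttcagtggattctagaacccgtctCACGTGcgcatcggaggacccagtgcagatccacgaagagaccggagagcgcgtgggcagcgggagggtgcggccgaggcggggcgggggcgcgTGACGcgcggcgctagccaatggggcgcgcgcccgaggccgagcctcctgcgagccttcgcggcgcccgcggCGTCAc

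Klf15 had 2 TGACG matches, at 78 and 6 bases before the start, and 2 E-boxes. Klf9 had 1 TGACG match 46 bases before the start, Klf13 had 1 at 56 bases, and Klf6 had 1 E-box at 43 bases and no TGACG. Klf3, which also passed as higher and is not shown, had 0 TGACG matches and 0 E-boxes. On both strands, TGACG was found in 5 of the 8 members (also in Klf2 and Klf4) and in 17.8% of the 32851 promoter entries of the RefSeq table, and the full element TGACGTCA in 0 of 8 and 1.55%. The full element contains the core. The E-box was found in 4 of 8 (also in Klf4 and Klf11) and 6.02%. These matches occurred in promoters of members that were higher, lower or not past the size rule.

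Other strings sought in the same windows were the GC box GGGCGG, in 7 of 8 members and 32.7% of entries, the CACCC box CACCC, in 5 of 8 and 52.0%, and the CCAAT box CCAAT, in 5 of 8 and 33.8%. The GC content of the 8 windows was 59.6% to 78.4%, above the median of 52.4% over the table, which bears on how often GC-rich strings occur. Klf6 had 4 CCAAT matches. Klf9 had TGAATCA, a match to the loose string TGANTCA that was sought for AP-1. In that string N is any base, and 6.75% of entries held a match, so it is not a strict AP-1 site. Klf2 had the MEF2 site CTAAATTTAG, a motif present in 1.69%. The TATA box TATAAA (12.4% of entries), the CArG box (1.47%) and the palindromic glucocorticoid element (0.387%) had 0 matches in the 8 windows. A match is a description of the letters, not of binding.

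Gene lists tied to the members by role were counted by the same size rule, beside 15.3% higher and 12.8% lower among all measured genes. These lists too were chosen with earlier results of these data known. Cofactors of KLFs and factors of KLF protein stability, in 1 list, were all measured, with 3 of 15 higher and 0 lower, and a median log2 ratio of 0.11. Fhl3, a LIM protein that binds Klf3, was at 2.09 and Ctbp2, the corepressor of Klf3, at 1.24, with 44.9 CPM with JMJD3 shRNA and 19.0 CPM in control. The ubiquitin ligase Smurf1, picked once its values were known, was at 0.85. Ctbp1, with the most reads of the list, was at 157 CPM against 145 CPM (log2 0.11), and the corepressor Sin3b and deacetylase Hdac2, lowest of the list, were at -0.35 and -0.27 and did not pass.

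Upstream of Klf2 and Klf4, 3 of 9 measured genes of the ERK5 and MEF2 axis were higher and 0 lower, and the median log2 ratio was 0.45. The factor Mef2a was at 0.92 (87.0 CPM against 45.9 CPM), the kinase Map3k2 at 0.76 and, picked once its values were known, Mapk7, which encodes ERK5, at 0.60. Map2k5 at -0.22 and Pdcd10 at -0.19 were lowest and did not pass. Mef2b and Mef2c were not measured. Mapk7 no longer passed when libraries were scaled by their totals alone (log2 0.57), which left 2 of 9 higher. Map3k2 no longer passed with the exon-length trend removed (0.29), and at a fold of 2 the count was 0.

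The TGF-beta early response list, set beside Klf10 and Klf11, had 9 of 13 genes higher, 1 lower and a median log2 ratio of 0.83. The ligand Tgfb2 had 178 CPM with JMJD3 shRNA and 61.0 CPM in control (log2 1.54, interval 1.42 to 1.66). The receptors were at the other end, Tgfbr1 being lower at -1.07 (95.7 CPM against 200.3 CPM) and Tgfbr2 at -0.24 without passing. At a fold of 2 the count higher was 5.

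Among immediate early genes of the serum response, to which Klf6 and Klf10 are often added, 9 of 10 measured genes were higher and 0 lower, with a median of 1.45. Fosb and Egr1 were highest at 2.38 (interval 1.63 to 3.23) and 2.32 (2.13 to 2.52), so their order was not resolved. Fosb had 134 counts with JMJD3 shRNA and 16 in control. Myc, with the most reads of the list over both libraries, was at 256 CPM with JMJD3 shRNA and 90.6 CPM in control. With a minimum of 5 CPM, which leaves out Fosb, 7 genes were higher, and at a fold of 2 the count was 8. Jun at -0.09 did not pass and Ier3 at 0.70 did.

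The list set beside Klf9 and Klf15 was the glucocorticoid receptor gene Nr3c1 and genes induced by the receptor, and its ratios lay in both directions. The glucocorticoid list held 3 of 9 genes higher and 4 lower (median log2 ratio -0.17). The chaperone Fkbp5 at 0.87 and the receptor Nr3c1 at 0.84 were highest, and Per1, picked once its values were known, stood at 0.68. Tat, tyrosine aminotransferase, and the kinase Sgk1 were lowest, at -4.19 and -3.79, Sgk1 having 76.5 CPM with JMJD3 shRNA and 1060 CPM in control. With the exon-length trend removed, Nr3c1 (0.57) and Per1 (0.52) no longer passed and 1 gene was higher, and at a fold of 2 the count was 0, while the count lower was 4 in both cases. Dusp1 and Mt2, also picked afterwards, were lower, at -1.31 and -1.14. In the list of amino acid breakdown and gluconeogenesis genes linked to Klf15, 0 of 11 measured genes were higher and 6 lower, with a median of -0.71. Tdo2, which opens tryptophan breakdown, had 14.2 CPM against 236 CPM in control (log2 -4.06), and Gpt2, with the most reads of the list, was at -0.72. Prodh, proline dehydrogenase, at 0.35 and the gluconeogenesis gene G6pc at -0.32 did not pass. Pck1, also of gluconeogenesis and picked once its values were known, was at -0.34 and did not pass either. The count lower in this list was 4 at a fold of 2. It was 5 with a minimum of 5 CPM, with the exon-length trend removed or with genes of overlapping exons left out. Tat was counted as lower in this list, in the glucocorticoid list and among the hepatocyte markers, so these counts are not separate observations. Most hepatocyte markers were also lower, and their part in this list was not tested.

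Lists of genes reported downstream of other members each held higher and lower genes. For Klf2 and Klf4, 2 of 7 measured genes were higher and 3 lower, with a median of -0.62. Edn1, endothelin, was at 2.40 on 382 counts against 45 in control, Thbd, thrombomodulin, at 0.59, and the sphingosine receptor S1pr1 at -1.90 (9.55 CPM against 35.8 CPM). Thbd no longer passed when libraries were scaled by their totals alone, at a fold of 2 or with the exon-length trend removed, and at a fold of 2 the list held 1 gene higher and 1 lower. Nos3, endothelial nitric oxide synthase, had 12 counts against 16 and shares exonic sequence with another gene, and Cdkn1a, with the most reads, was at 0.51, neither passing. For Klf6, 1 of 8 was higher and 2 lower, with a median of 0.01, Tgfb1 being at 0.83, Tgfbr1 at -1.07 and the autophagy gene Atg7 at -0.63. At a fold of 2 these counts were 0 and 1, and with the exon-length trend removed 2 and 2. For Klf3, Klf5, Klf11 and Klf13, 2 of 6 were higher and 1 lower (median log2 ratio 0.11). The cyclin Ccnd1 was at 1.58 (301 CPM against 100.5 CPM), the growth factor Pdgfa at 1.03 and the monoamine oxidase Maob at -1.01, while Lgals3 at -0.12 did not pass.

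**Figure D5:**
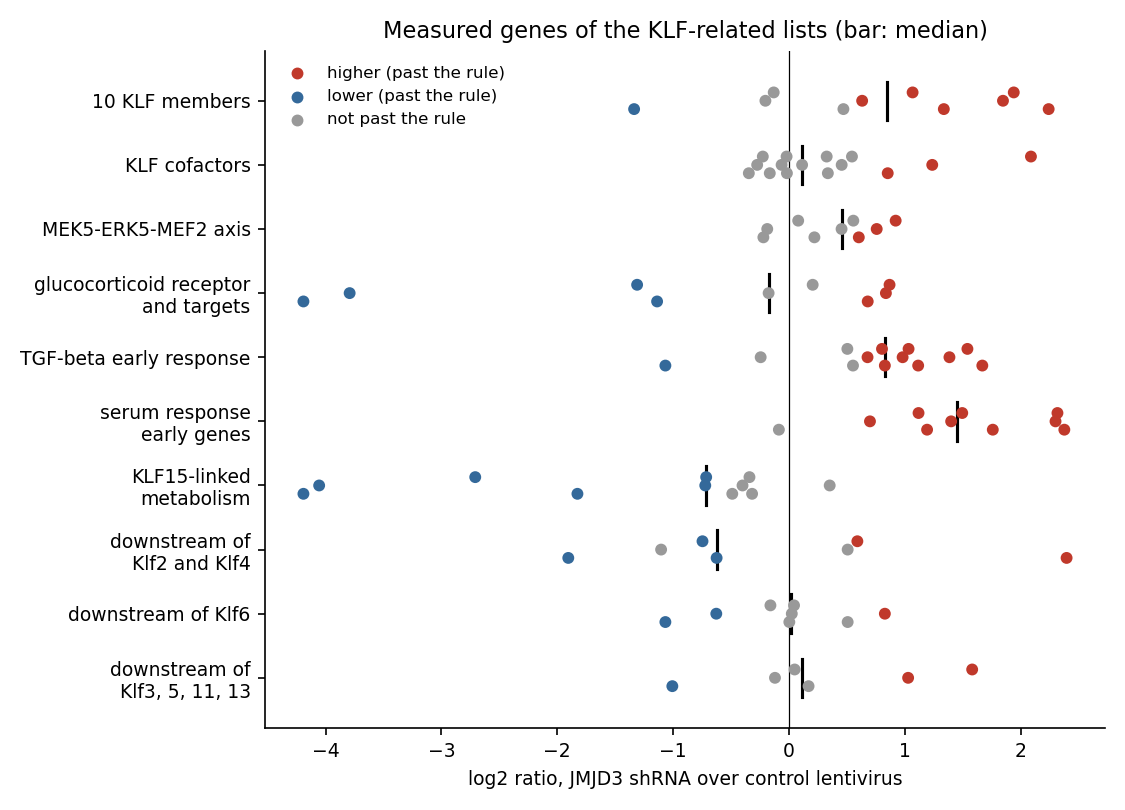
Log2 ratio of JMJD3 shRNA over control for each measured gene of the 10 members and of 9 related lists, coloured by the size rule, with the median of each list as a black bar. The serum response and TGF-beta lists have medians of 1.45 and 0.83, and the Klf15-linked list one of -0.71.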

How the data were processed

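Whole-number read counts per gene were deposited for 2 libraries, made with featureCounts 1.4.6-p4 from STAR alignments without strand, on UCSC mm9 gene models, per the file headers. The submitters' processing notes name STAR 2.5.3a, Trimmomatic 0.36, edgeR and mm9, with no roles. No option for read pairs was recorded, so both reads of a pair were counted and intervals are too narrow. The authors' deposited table gives log2 fold changes, average log2 CPM and p-values for 12838 genes. Its fold had the sign of the JMJD3 shRNA over control ratio in 12824 of 12824 genes with counts in both libraries. The deposited count files also give each gene's exon length in bp.

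Counts were scaled by library totals and TMM factors (edgeR 4.0.16, R 4.3.3). Ratios were computed without a pseudocount, with exact conditional binomial intervals (scipy 1.17.1). The floor for a count of 0 was 3 counts. With 1 library per group there is no test of the conditions. The procedure was tested on simulated Poisson counts. These hold no variation between cultures and no doubled read pairs, so that check covers counting error only. Groups come from the sample titles. Named genes were the members, and in each list the gene with the most counts and up to 2 with the highest and 2 with the lowest ratios; 1 gene that this rule takes is not reported here. The members and lists were chosen with earlier results of these data known. Members' protein sequences were not analysed here.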

Additional observations from a re-analysis of the deposited data

How the results depend on the processing

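All 10 members kept the direction of their ratio under the alternatives run for them: DESeq2 1.42.0 size factors, library totals alone, no filter, a minimum of 5 CPM (which leaves out Klf2), counts halved as if each pair were 2 reads, a 99% interval, a fold of 2 and removal of the trend of the ratio with exon length. The counts of 6 members higher and 1 lower changed only with a fold of 2, where Klf3 no longer passed and 5 were higher. The median of the members was 1.07 with a minimum of 5 CPM, which leaves out Klf2. With the length trend removed, Klf6 was at 1.81 and Klf13 at 0.79, and Klf12 passed as lower, giving 1 of the other KLF and Sp genes in that direction against 0. A fold of 2 left 21 distinct genes of the lists higher, against 35. By list, 15 of 198 counts moved by over 1.5 times. No member has overlapping exons, so leaving such genes out changed no member. No paired analysis was possible because each group has 1 library. For the same reason no library could be left out. Depth limits Klf2 most, with 21 and 15 counts in JMJD3 shRNA and control, and Klf5, with 24 in control.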

Other observations

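The nearest measured gene on each side of each member in mm9 was also read, a rule chosen after the data were seen. Of these 20 neighbours, 4 passed the size rule as higher and 3 as lower, near the 15.3% and 12.8% of all measured genes. In 5 cases a neighbour passed the same way as its member. No share over all genes was computed for that count, and a link between neighbours and members was not tested. Both neighbours of Klf15 were lower. Aldh1l1, a folate enzyme 75639 bp from Klf15, had 70.1 CPM with JMJD3 shRNA and 108 CPM in control (log2 -0.62, interval -0.74 to -0.51). Ccdc37, 34146 bp away on the other side, had 8 counts against 19. Mtmr10, a phosphatase-like gene 348755 bp from Klf13, had 160 CPM with JMJD3 shRNA and 55.6 CPM in control, a log2 ratio of 1.52. Azin1, a regulator of polyamine synthesis 186723 bp from Klf10, was at 0.76, and Tbc1d1, 452037 bp from Klf3, was at 1.11. Cys1, which lies 3056 bp from Klf11, was at 1.04 while Klf11 was at 0.47 and did not pass. On the sides of Klf6, Akr1e1, 1252325 bp away, was lower at -0.94, and Pitrm1, 677764 bp away, was at 0.09 and did not pass. Klf5, the highest member, lies between Pibf1 at 0.17 and Klf12 at -0.55, neither of which passed.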
